A study of Homo sapiens with 8 samples.

Results

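The 38 genes of the interferon response and of antigen presentation were followed in 2 human renal cell carcinoma (RCC) lines grown with or without branched-chain amino acids (BCAAs). They were chosen by name, as the genes that carry an interferon signal into the nucleus, the genes that this signal turns on, and the genes that load and display peptides on HLA class I. Earlier results of these data were known when this choice was made. The 38 genes comprised 3 receptors and kinases, 5 transcription factors, 2 RNA sensors, 18 interferon-induced effectors and 10 genes of the HLA class I machinery. Of 25431 genes listed for 769-P and 24190 listed for CAKI-1, 32 and 31 were members, and 31 were listed in both lines. IRF7, IFI27, HLA-E, TAP1, PSMB8 and PSMB9 had no row analysed here in either line, nor had TAP2 in CAKI-1. IFITM1 had at most 1 read per library in CAKI-1 and was not tested there, so that 32 members were tested in 769-P and 30 in CAKI-1.

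769-P and CAKI-1 are established lines of clear cell RCC. The labels give RPMI for the routine culture of 769-P and MEM for that of CAKI-1, both with FBS and antibiotics, so the routine medium cannot be told apart from the line. The study's methods describe the BCAA-depleted medium as RPMI prepared from a powder free of amino acids, with dialyzed FBS. In each line, 2 libraries of total RNA came from cells kept for 16 h with BCAA (0.17 mM valine, with leucine and isoleucine both at 0.38 mM), and 2 from cells kept without BCAA. The study's figure legend for its RNA-seq gives a larger n than these 2 libraries per condition. The comparison asks which transcripts responded to BCAA supply, and the labels name no added interferon for any group.

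Interferons are secreted when cells sense viral nucleic acid. They bind cell surface receptors, Janus kinases then phosphorylate STAT proteins, and these switch on interferon-stimulated genes from short DNA elements in their promoters. The products of those genes block viral replication, sense RNA, and raise the loading of peptides onto HLA class I for inspection by T cells. In tumour cells the same genes can be expressed at a basal level without added interferon.

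The 8 libraries held between 30979773 and 64256834 reads on listed genes. In 769-P the libraries with BCAA were deeper (64256834 and 55829324 reads) than those without (39062721 and 40130258), so depth and condition went together there. The values below are reads per gene divided by a size factor of the library, called normalised read counts, and the tables of both lines were normalised separately. Of 10 renal carcinoma markers, 9 in 769-P and 8 in CAKI-1, PAX8 among them, were above 3 reads in a library, and CA9 had no row analysed here. The summed normalised read count of the renal carcinoma markers was 128700 to 132700 with BCAA and 137700 to 140000 without in 769-P, and 89930 to 95010 and 129700 to 134200 in CAKI-1. None of the 6 T and NK cell markers was above 3 reads. Of the 6 myeloid markers, 3 (CD14, CSF1R and ITGAM) had a row analysed here in each line. Their summed normalised read count was higher with BCAA in both lines, at 333 to 394 against 249.5 to 299 in 769-P and at 103 to 146 against 68.2 to 87.4 in CAKI-1. Of the 4 fibroblast markers, only PDGFRB was above 3 reads in 769-P, while all 4 were in CAKI-1. The fibroblast markers summed to 153 to 154 with BCAA and 33.5 to 52.6 without in 769-P, and to 3971 to 4155 and 3681 to 3732 in CAKI-1. The part of these markers in the results below was not tested, and in bulk RNA fewer cells of a type and less RNA per cell cannot be told apart. Nothing in the labels says that the 2 libraries of a condition came from separate cultures, so the p-values measure only the spread between these libraries, which may be technical. An exact two-sided permutation test of 2 against 2 libraries cannot give a p below 0.333, so calls come from limma fitted over all genes, at a Benjamini-Hochberg adjusted p under 0.05.

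BCAA moved members of this set in both directions. In 769-P, 5 members rose (IFIT1, IFITM2, OAS1, OAS3 and IFI44) and 10 fell (IFNAR1, IFNGR1, JAK1, IRF1, RIGI, IFIH1, DTX3L, HLA-B, HLA-C and TAP2), which is 46.9% of the 32 tested. Over all 22391 genes tested in 769-P, 38.4% were called, with 20.3% higher and 18.2% lower. In CAKI-1, OAS3 alone rose and 6 members fell (STAT2, RIGI, IFIT2, IFIT3, MX1 and IFI44), which is 23.3% of the 30 tested. The background in CAKI-1 was 19.9% of 21347 genes, with 10.8% higher and 9.05% lower. The called shares of the members were therefore near those of all genes, and the median log2 fold change of the members was -0.01 in 769-P and -0.11 in CAKI-1, beside -0.02 and -0.01 over all genes tested. Libraries with and without BCAA did not overlap for 24 of 32 members in 769-P and 18 of 30 in CAKI-1, against 67.0% and 57.7% of all genes. Leaving out any 1 of the 4 CAKI-1 libraries left 0 genes called in that line by limma, members and all other genes alike, with 5 to 11 members then at an unadjusted p under 0.05. All calls in CAKI-1 thus rest on the full set of 4 libraries, while the direction of its 7 called members was the same whichever library was left out.

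**Figure D1:**
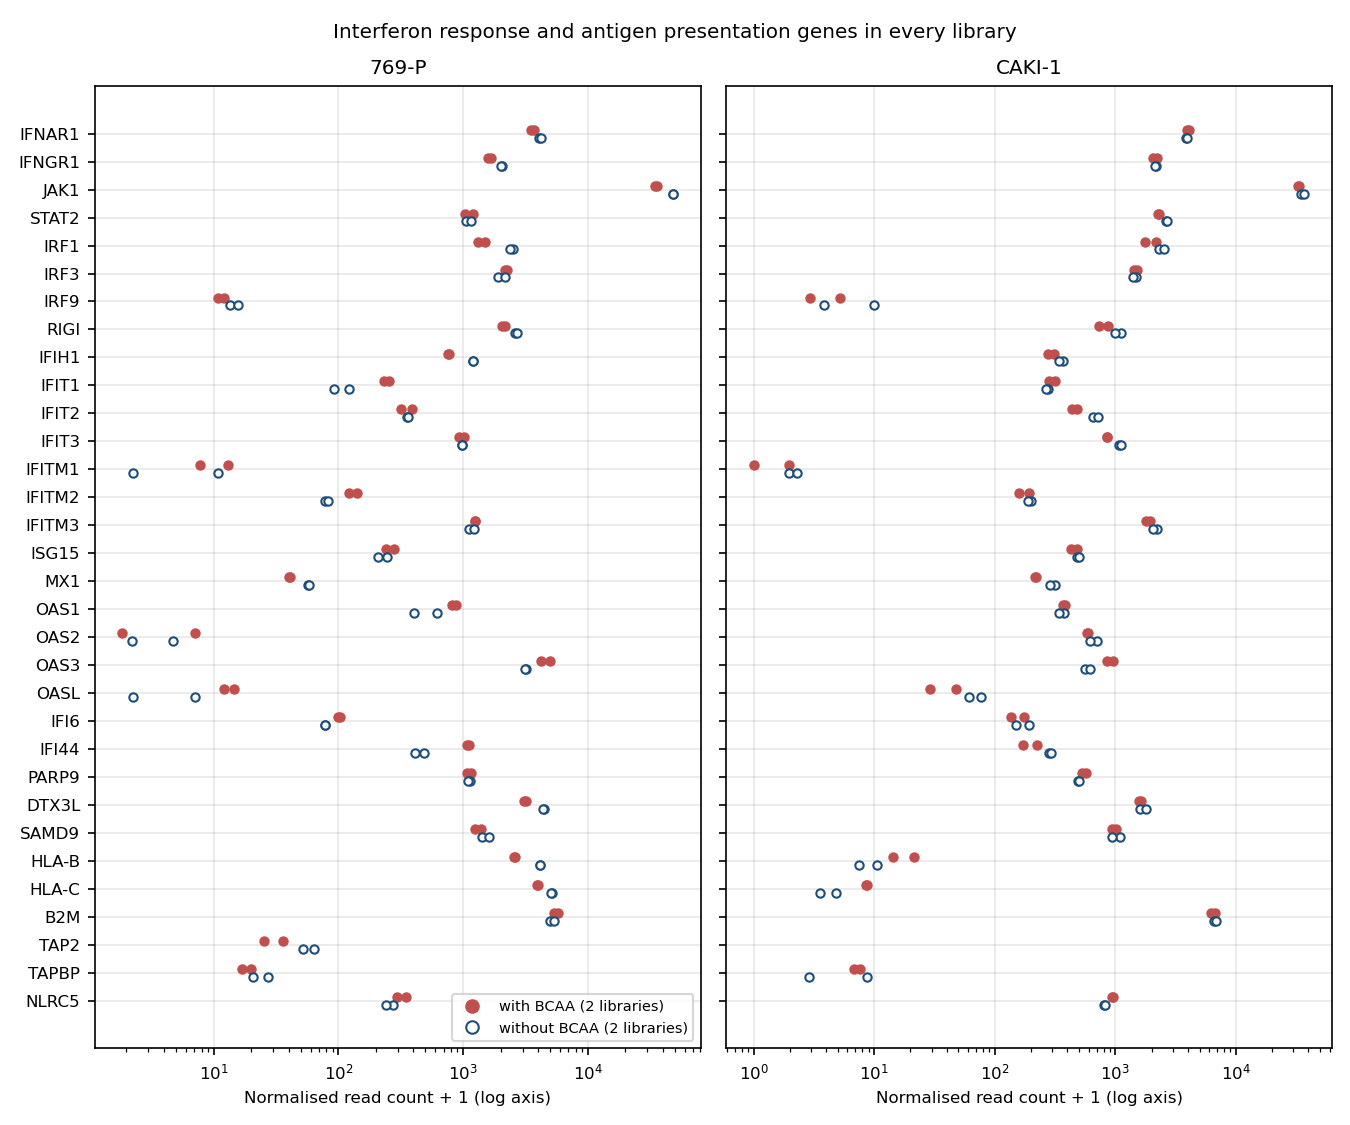
Normalised read count plus 1 (log axis) of each listed member in every library of 769-P (left) and CAKI-1 (right), filled points with BCAA and open points without. Each point is 1 library, genes are ordered by role, and IRF9, IFITM1 and TAPBP lie near the bottom of the scale in both lines.

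**Figure D2:**
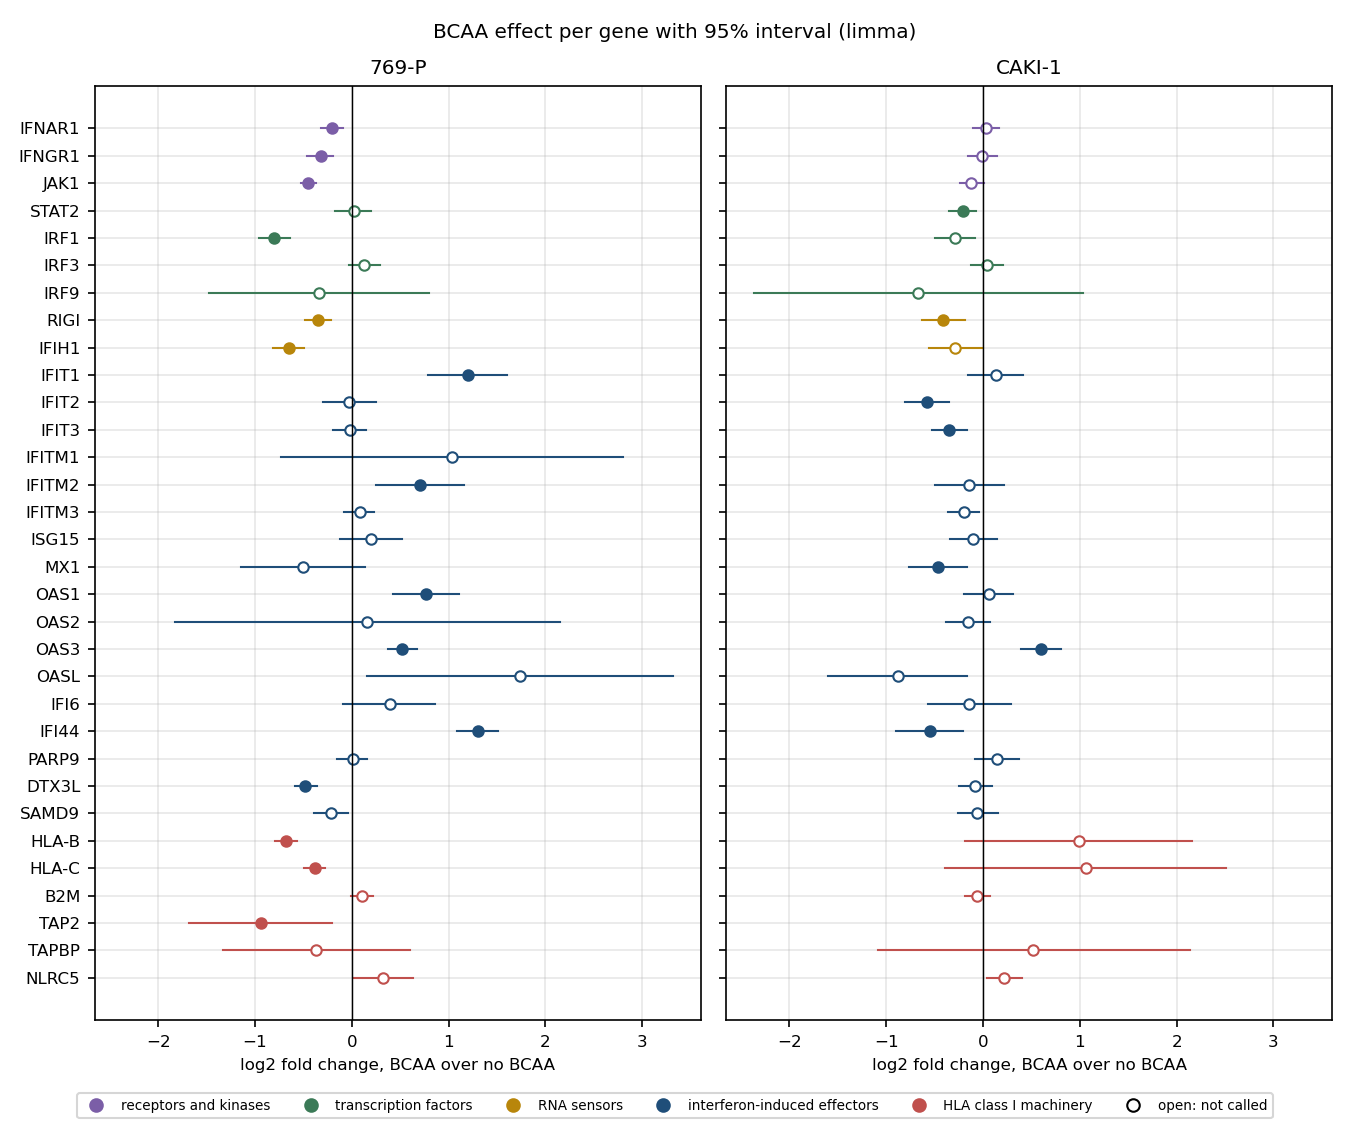
Log2 fold change with BCAA (limma) and its 95% interval for each tested member in both lines, coloured by role, with filled points for called genes. In 769-P the receptors, kinase and RNA sensors lie left of 0 and the 5 effectors called higher right of it, while in CAKI-1 OAS3 is the filled point on the right.

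The receptor and kinase genes of the pathway were lower with BCAA in 769-P. JAK1, the kinase shared by type I and type II interferon receptors, stood at 35981 and 34858 normalised read counts with BCAA and 48263 and 48509 without. The conditions did not overlap, and the log2 fold change was -0.45 ± 0.04 (SE) with a limma adjusted p of 1.3e-06. IFNGR1, the ligand-binding chain of the interferon gamma receptor, stood at 1679 and 1586 with BCAA and 2052 and 2034 without, a log2 fold change of -0.32 ± 0.06 (SE). IFNAR1, a chain of the type I interferon receptor, showed a smaller shift, with 3698 and 3492 with BCAA and 4080.3 and 4195 without and a log2 fold change of -0.20 ± 0.05 (SE). The call of JAK1 held whichever 769-P library was left out. That of IFNAR1 was lost when any 1 of the 4 was left out (log2 fold change between -0.24 and -0.16), and that of IFNGR1 was lost without BCAA replicate 2 or either library without BCAA (between -0.36 and -0.28).

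In CAKI-1 none of the 3 was called by limma, edgeR or DESeq2, and none had an unadjusted limma p under 0.05. JAK1 stood at 32727 and 33427 with BCAA and 34763 and 37089 without there, with a 95% interval of the log2 fold change of -0.24 to 0.01. The interval was -0.16 to 0.14 for IFNGR1 and -0.10 to 0.16 for IFNAR1. The effect was lower in 769-P than in CAKI-1 for all 3 in the interaction test, with a difference of -0.33 (adjusted p = 0.0025, limma) for JAK1, -0.31 (adjusted p = 0.022) for IFNGR1 and -0.23 (adjusted p = 0.039) for IFNAR1 on the log2 scale. Scaled by exon length and library size (RPKM computed from the recovered reads), JAK1 had the highest level of the listed members in both lines, with a mean over 4 libraries of 136.6 in 769-P and 138.3 in CAKI-1.

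Among the transcription factors, IRF1, which is itself induced by interferon gamma and drives HLA class I genes, fell in 769-P. Its normalised read counts were 1497 and 1315 with BCAA and 2510.3 and 2379 without, a log2 fold change of -0.80 ± 0.07 (SE, adjusted p = 2.8e-06, limma), and this call held whichever library was left out. In CAKI-1 the libraries with BCAA were also lower, at 1762 and 2176 with BCAA and 2288 and 2516 without, but the log2 fold change of -0.29 ± 0.10 (SE) missed the threshold with an adjusted p of 0.053 and passed it in edgeR and DESeq2. The effects differed between lines by -0.51 (adjusted p = 0.015, limma). Antisense genes overlap 22.0% of the exon bases of IRF1, and reads cannot be assigned between them without strand.

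STAT2, which is activated after type I interferon, fell in CAKI-1 from 2632 and 2680.5 without BCAA to 2280.4 and 2309 with it, a log2 fold change of -0.21 ± 0.06 (SE, adjusted p = 0.035, limma). This call was lost with a replicate block, with scaling by library totals, with the spread from 8 libraries and without the intensity trend, and with any 1 CAKI-1 library left out (between -0.22 and -0.20). In 769-P its libraries overlapped at 1045 and 1201 with BCAA and 1064 and 1153 without, and the difference between lines was not called (adjusted p = 0.16). IRF3, the factor activated by RNA and DNA sensing that induces interferon beta, was not called in either line, with log2 intervals of -0.03 to 0.29 in 769-P and -0.12 to 0.21 in CAKI-1. IRF9, a DNA-binding factor of the type I response, had only 10 to 13 reads per library in 769-P and 2 to 7 in CAKI-1. Since 48.4% of its exon bases are shared with another annotated gene on its strand, its low count may not reflect its expression.

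The RNA sensors were lower with BCAA. RIGI, which recognises RNA with a 5′ triphosphate and is also named DDX58, stood at 2048 and 2151 with BCAA and 2622 and 2732 without in 769-P, and at 736 and 864 with BCAA and 1121 and 1002 without in CAKI-1. The log2 fold changes were -0.35 ± 0.06 (SE, adjusted p = 3.9e-04) and -0.41 ± 0.10 (SE, adjusted p = 0.014, limma), which made RIGI the single member called lower in both lines. The difference between lines was not called, with an interval of -0.20 to 0.32. IFIH1 encodes MDA5, the sensor of long RNA duplexes, and it fell in 769-P from 1206 and 1196 to 767 and 761, a log2 fold change of -0.65 ± 0.07 (SE, adjusted p = 1.6e-05, limma) that held whichever library was left out. In CAKI-1 it stood at 274 and 307 with BCAA and 366 and 344 without, which did not overlap but missed the threshold (adjusted p = 0.14). The 769-P call of RIGI was lost when BCAA replicate 1, BCAA replicate 2 or replicate 2 without BCAA was left out, with log2 fold changes between -0.39 and -0.32, and without 1 CAKI-1 library its log2 fold change there lay between -0.53 and -0.29.

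The promoters of most effector members shared a short sequence. The effectors were chosen by name as genes that interferon turns on, and it does so through such elements. A high share can therefore follow from that choice and is a description only. RefSeq promoter windows of 250 bases before to 50 bases after a start (GRCh38.p14) were given for 30 of the 38 members. The core of the interferon-stimulated response element (ISRE), GAAANNGAA on either strand, was found in 19 of these 30 (63.3%), beside 9.86% of the 27305 genes of the table. It was found in 13 of 14 effectors, in 5 of 8 genes of the HLA class I machinery, in 1 of the 2 RNA sensors, and in none of the 3 receptor and kinase genes or the 3 transcription factors with a window. The gamma-activated site (GAS), TTCNNNGAA, was found in 8 of 30 members (26.7%) and in 9.38% of all genes. Both motifs may overlap in a window. A match is a description of these letters and not evidence of a bound site. Only the exact spacing of each pattern was counted, so gaaacgaaac in the OAS1 and RIGI windows and gtttcacttc in the HLA-B and HLA-C windows were not. A window without a match may therefore still hold an ISRE of another spacing. Of the members with a window, 3 of 4 that rose and 3 of 10 that fell in 769-P held an ISRE core, and 3 of 5 that fell in CAKI-1. RIGI, HLA-B and HLA-C, with the uncounted letters above, were among those that fell in 769-P. These shares thus depend on the pattern searched.

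The 180 bases before the start are printed below in transcript orientation for effectors that rose (IFI44, IFIT1, OAS3, OAS1), for the effector ISG15 that was not called, and for IFIH1 and IRF1, which fell in 769-P. Capitals mark ISRE cores or GAS matches. The ISG15 window holds overlapping ISRE cores, and the capitals in OAS1 and IRF1 are GAS matches. The letters gaaacgaaac near the end of the OAS1 stretch have another spacing and stay in lower case.
IFI44 (chr1:78649609-78649788, plus strand): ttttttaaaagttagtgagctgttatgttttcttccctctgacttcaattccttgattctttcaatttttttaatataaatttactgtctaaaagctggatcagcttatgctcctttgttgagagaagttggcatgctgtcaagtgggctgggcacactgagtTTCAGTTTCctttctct
IFIT1 (chr10:89392443-89392622, plus strand): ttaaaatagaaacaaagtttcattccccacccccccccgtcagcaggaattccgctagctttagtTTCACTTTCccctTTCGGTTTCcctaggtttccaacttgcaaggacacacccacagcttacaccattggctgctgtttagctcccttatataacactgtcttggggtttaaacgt
OAS3 (chr12:112938294-112938473, plus strand): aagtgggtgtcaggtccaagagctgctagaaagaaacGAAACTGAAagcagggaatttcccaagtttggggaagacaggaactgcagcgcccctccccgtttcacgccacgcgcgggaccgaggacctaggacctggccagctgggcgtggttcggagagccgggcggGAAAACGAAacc
OAS1 (chr12:112906782-112906961, plus strand): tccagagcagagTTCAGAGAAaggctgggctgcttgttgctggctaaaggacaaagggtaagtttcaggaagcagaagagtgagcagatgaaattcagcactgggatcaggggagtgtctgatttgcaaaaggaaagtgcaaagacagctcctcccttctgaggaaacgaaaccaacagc
ISG15 (chr1:1013317-1013496, plus strand): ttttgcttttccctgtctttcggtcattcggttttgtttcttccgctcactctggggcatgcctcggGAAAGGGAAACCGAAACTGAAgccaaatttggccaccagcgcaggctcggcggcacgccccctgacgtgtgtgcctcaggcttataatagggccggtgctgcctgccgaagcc
IFIH1 (chr2:162318685-162318864, minus strand): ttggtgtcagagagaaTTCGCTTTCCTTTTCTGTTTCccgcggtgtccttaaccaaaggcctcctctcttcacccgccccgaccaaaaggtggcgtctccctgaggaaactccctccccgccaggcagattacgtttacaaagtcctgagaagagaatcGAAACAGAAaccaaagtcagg
IRF1 (chr5:132490774-132490953, minus strand): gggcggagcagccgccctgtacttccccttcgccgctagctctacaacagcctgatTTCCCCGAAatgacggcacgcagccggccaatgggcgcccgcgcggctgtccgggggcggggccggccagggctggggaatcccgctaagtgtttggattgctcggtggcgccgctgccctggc

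The interferon-induced effectors, whose products act against viral RNA, entry or assembly, were mostly not called in either line. In 769-P, 5 of 17 tested effectors rose, 1 fell and 11 were not called, so that 35.3% were called beside 38.4% of all genes, and their median log2 fold change was 0.20. In CAKI-1, 1 of 16 rose, 4 fell and 11 were not called, so that 31.2% were called beside 19.9% of all genes, with a median of -0.14. Once genes that averaged below 10 were dropped, the share over all genes was 55.6% in 769-P and 28.6% in CAKI-1. The member with the largest called rise in 769-P was IFI44 (chr1:78649796-78664078, plus strand), an interferon-induced gene of the IFI44 family. It stood at 1085 and 1116 with BCAA and 409.9 and 483 without, a mean of 1100.5 ± 21.9 (SD, n = 2) against 446 ± 51.7 (SD, n = 2), so both libraries with BCAA lay above both without. The log2 fold change was 1.30 ± 0.10 (SE, adjusted p = 4.9e-07, limma). In CAKI-1 the order was turned, with 223 and 171 with BCAA and 281 and 293 without and a log2 fold change of -0.55 ± 0.16 (SE, adjusted p = 0.03, limma). That CAKI-1 call was lost with no filter on low values and without the intensity trend. IFI44 was the single member called in opposite directions, and the difference of 1.86 (interval 1.45 to 2.27, adjusted p = 1.5e-05) was called whichever of the 8 libraries was left out. Within 769-P the call was lost without BCAA replicate 1 or BCAA replicate 2 (log2 fold change between 1.19 and 1.42), and in CAKI-1 its log2 fold change lay between -0.74 and -0.37.

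The OAS genes encode enzymes that make 2′-5′ oligoadenylate from ATP after binding RNA, which activates RNase L. OAS1, OAS3 and OAS2 lie beside each other on chromosome 12 (OAS3 at chr12:112938352-112973249, plus strand). OAS3 was the single member that rose in both lines. It stood at 4949.6 and 4220.0 with BCAA and 3198 and 3167 without in 769-P, a log2 fold change of 0.52 ± 0.07 (SE, adjusted p = 6.4e-05, limma). In CAKI-1 it stood at 849 and 949 with BCAA and 564 and 622 without, a log2 fold change of 0.60 ± 0.10 (SE, adjusted p = 0.0013). These effects differed by -0.08 with an interval of -0.34 to 0.18, and the difference was not called. OAS1 rose in 769-P, from 400.0 and 613 to 822 and 870.5, a log2 fold change of 0.77 ± 0.15 (SE, adjusted p = 0.0017). In CAKI-1 its libraries overlapped at 368 and 382 with BCAA and 377 and 344 without, and the effect was 0.71 further up in 769-P (adjusted p = 0.034).

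OAS2 was near the floor in 769-P, with 8 and 1 reads with BCAA and 3 and 1 without. In CAKI-1 it had 615 and 699 reads with BCAA and 741 and 477 without, so the neighbours OAS1 and OAS3 were read in both lines while OAS2 was read well in CAKI-1 only. OAS2 was not called in CAKI-1, where its log2 fold change was -0.16 ± 0.10 (SE). OASL, an OAS-like protein that enhances RIG-I signalling, rested on few reads in 769-P, 18 and 13 with BCAA and 1 and 5 without, and on 29 and 56 with BCAA and 80 and 47 without in CAKI-1. It was not called in either line, although its effects differed between lines by 2.62 (interval 0.93 to 4.31, adjusted p = 0.029, limma). The 769-P call of OAS3 was lost without either library that lacked BCAA, with log2 fold changes between 0.41 and 0.64. That of OAS1 was lost without BCAA replicate 1, BCAA replicate 2 or replicate 1 without BCAA, with log2 fold changes between 0.46 and 1.08. The CAKI-1 log2 fold change of OAS3 lay between 0.52 and 0.68 with 1 library left out.

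The IFIT genes encode proteins that bind viral RNA lacking self marks on its 5′ end, and they are clustered on chromosome 10. IFIT1 (chr10:89392546-89406486, plus strand) rose in 769-P, at 231 and 252 with BCAA and 90.7 and 121 without, a log2 fold change of 1.20 ± 0.19 (SE, adjusted p = 2.4e-04, limma). In CAKI-1 the libraries with BCAA were also above those without, at 313 and 281 with BCAA and 277 and 268 without, but IFIT1 was not called and its log2 interval was -0.16 to 0.41. Its neighbours on the chromosome were called in CAKI-1 and not in 769-P. IFIT2 fell in CAKI-1 from 654 and 723 to 435 and 484, a log2 fold change of -0.58 ± 0.10 (SE, adjusted p = 0.0024), while its 769-P libraries overlapped at 317 and 389 with BCAA and 353 and 362 without. IFIT3 likewise fell in CAKI-1, from 1063 and 1113 to 860.0 and 847, a log2 fold change of -0.35 ± 0.08 (SE, adjusted p = 0.0096), and overlapped in 769-P at 1018 and 919 with BCAA and 988 and 972 without. The effect was further up in 769-P for all 3 genes, by 1.07 for IFIT1 (adjusted p = 0.0052), 0.56 for IFIT2 (adjusted p = 0.034) and 0.33 for IFIT3 (adjusted p = 0.048). The IFIT1 call in 769-P was lost without BCAA replicate 1 or BCAA replicate 2, with log2 fold changes between 0.99 and 1.40. With 1 CAKI-1 library left out, IFIT2 lay between -0.66 and -0.51 and IFIT3 between -0.38 and -0.32.

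**Figure D3:**
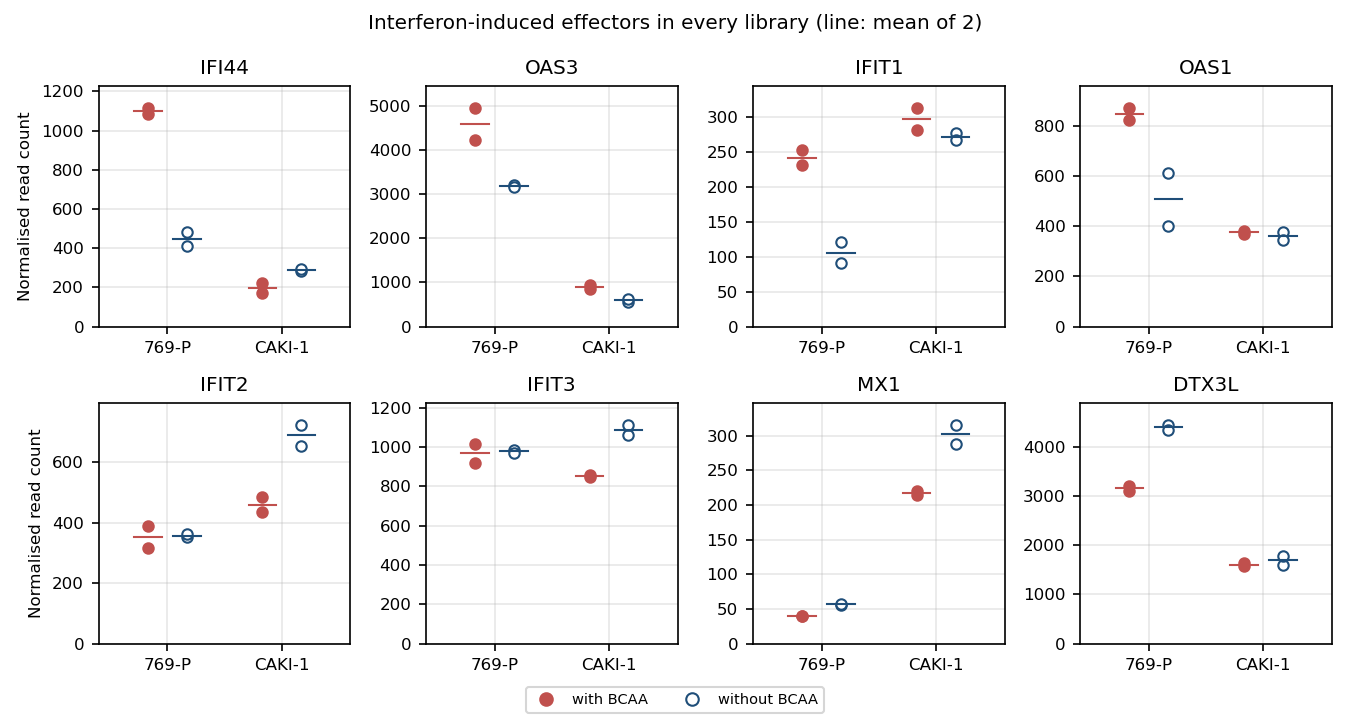
Normalised read count (linear axes from 0) of 8 effectors in every library, filled points with BCAA and open points without, with a short line at the mean of 2 libraries. The lines were normalised separately, so only points of the same line compare. IFI44 is high with BCAA in 769-P and low with it in CAKI-1, and OAS3 is high with BCAA in both.

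MX1, a GTPase that traps viral nucleocapsids, fell in CAKI-1 from 316 and 288 to 215 and 220.5, a log2 fold change of -0.47 ± 0.13 (SE, adjusted p = 0.03, limma), and this call was lost in DESeq2. In 769-P it had only 52 and 47 reads with BCAA and 45 and 47 without, and its log2 fold change of -0.50 ± 0.29 (SE) was not called. The interval of the difference between lines, -0.63 to 0.57, spans 0. With 1 CAKI-1 library left out its log2 fold change lay between -0.53 and -0.40.

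The IFITM proteins block virus entry at membranes. IFITM2 rose in 769-P, at 140.3 and 121 with BCAA and 77 and 81.9 without, a log2 fold change of 0.70 ± 0.21 (SE, adjusted p = 0.018, limma). This call was lost in DESeq2 and when any 1 library was left out (between 0.60 and 0.81), and 22.7% of its exon bases are shared with IFITM1. In CAKI-1 IFITM2 overlapped at 158 and 192 with BCAA and 198 and 187 without, and the difference between lines was 0.85 (adjusted p = 0.039). IFITM3, the effector with the highest level per exon length in both lines, was not called, with log2 intervals of -0.08 to 0.23 in 769-P and -0.36 to -0.04 in CAKI-1. IFITM1 had 1 to 14 reads per library in 769-P.

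ISG15, the ubiquitin-like protein attached to other proteins after interferon, was not called in either line. It stood at 278 and 241 with BCAA and 244 and 208 without in 769-P, and at 428 and 484 with BCAA and 477 and 497 without in CAKI-1, and the conditions overlapped in both. IFI6, a mitochondrial protein, and SAMD9, an antiviral factor, were not called in either line. Their log2 fold changes were 0.39 ± 0.22 (SE) and -0.22 ± 0.08 (SE) in 769-P and -0.14 ± 0.20 (SE) and -0.06 ± 0.09 (SE) in CAKI-1.

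DTX3L and PARP9 encode partners that act together in ADP-ribosylation and ubiquitination. They are read outward from neighbouring starts on chromosome 3, with 37 bases between the DTX3L start and the nearer of the PARP9 starts in RefSeq. The 9 bases of an ISRE core lie at the DTX3L start and inside the windows of these starts. Another PARP9 window shares 0 bases with that of DTX3L and holds 0 ISRE cores, and which PARP9 start was used was not tested. The stretch between the nearer starts up to the end of the shared core, on the plus strand, is shown with the core in capitals because both windows hold it.
DTX3L (chr3:122564301-122564340, plus strand): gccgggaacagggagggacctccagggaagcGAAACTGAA

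DTX3L fell in 769-P from 4447 and 4344 to 3215 and 3108, a log2 fold change of -0.48 ± 0.05 (SE, adjusted p = 1.1e-05, limma), and it was the single effector called lower there, whichever library was left out. PARP9 stood at 1148 and 1078 with BCAA and 1129 and 1087 without, with an interval of -0.15 to 0.16. The DTX3L interval of -0.59 to -0.36 lay wholly below that of PARP9, and the difference between the genes was not tested. Their exons overlap on opposite strands over 3.7% of the DTX3L and 2.4% of the PARP9 exon bases. In CAKI-1 DTX3L had 1633 and 1575 with BCAA and 1606 and 1789 without, PARP9 had 570.1 and 525 with BCAA and 488 and 502 without, and neither was called. The DTX3L effect in 769-P minus that in CAKI-1 was -0.40 (adjusted p = 0.0062).

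Before the HLA class I values are given, the gene region that holds most of them needs describing. HLA-B, HLA-C, HLA-E, TAP1, TAP2, TAPBP, PSMB8 and PSMB9 lie in the major histocompatibility complex (MHC) on chromosome 6, taken here as 29 to 33.5 Mb of GRCh38. Of 176 protein-coding genes there, 37 had a row analysed here in 769-P and 19 in CAKI-1. A mean value of at least 20 was reached by 11.9% of them in 769-P and 1.7% in CAKI-1, against 60.0% and 60.3% of protein-coding genes elsewhere. Widely expressed genes of the region, picked after their values were seen, were at the floor. BAG6 had 2 to 4 reads per library in 769-P, and BRD2 and WDR46 had 0 to 2 in CAKI-1 but means of 490.1 and 294 in 769-P. The cause was not tested, and levels of class I genes in this region cannot be read as expression levels of the cells.

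With that limit, the class I chains were lower with BCAA in 769-P. HLA-B (chr6:31269491-31357188, minus strand) stood at 2558 and 2621 with BCAA and 4171 and 4125 without, and HLA-C (chr6:31268749-31272130, minus strand) at 3899 and 3976 with BCAA and 5168 and 5098 without. Neither overlapped between conditions, and the log2 fold changes were -0.68 ± 0.05 (SE, adjusted p = 5.7e-07) and -0.38 ± 0.05 (SE, adjusted p = 4.1e-05, limma), and both calls held whichever library was left out. HLA genes are near-identical copies, and 18.9% of the exon bases of HLA-B are shared with other annotated genes. Reads that fit more than 1 gene may have been left out or misassigned in the counting. In CAKI-1, HLA-B had 21 and 16 reads with BCAA and 10 and 5 without, and HLA-C had 8 and 9 with BCAA and 4 and 2 without. Neither was called there. The differences between lines were called at -1.67 (adjusted p = 0.0011) for HLA-B and -1.44 (adjusted p = 0.0012) for HLA-C, and they rest on at most 21 reads per library in CAKI-1. That of HLA-C was lost in edgeR and DESeq2.

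**Figure D4:**
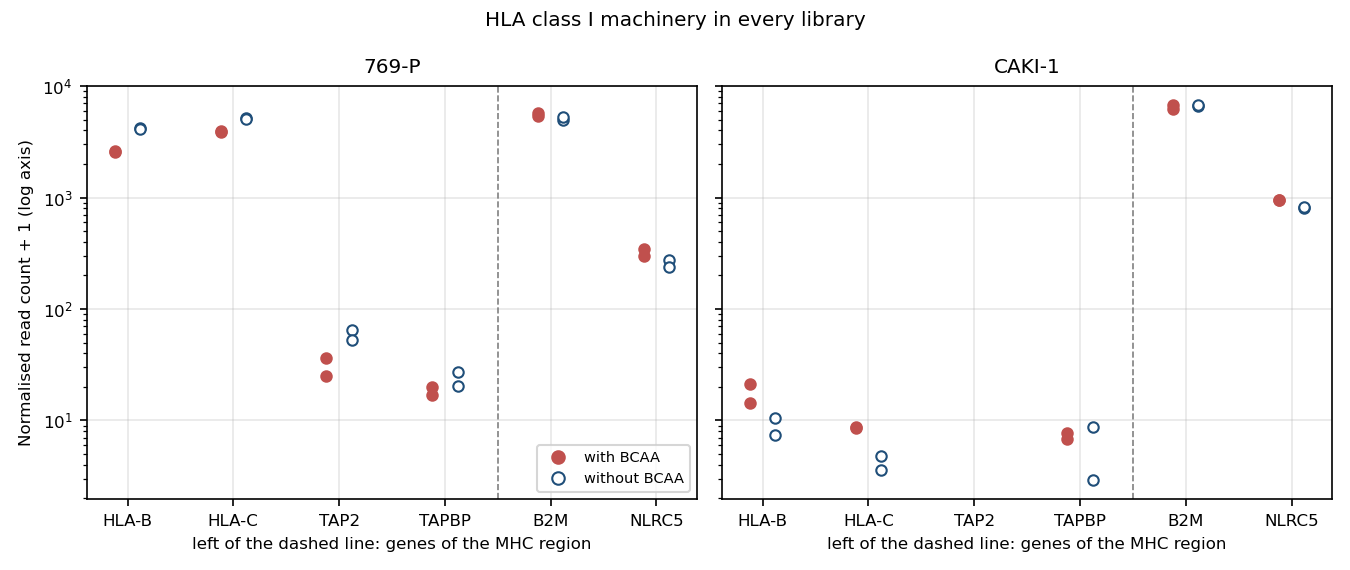
Normalised read count plus 1 (log axis) of the HLA class I machinery in every library, filled points with BCAA and open points without. HLA-B and HLA-C lie high in each 769-P library and rest on at most 21 reads per library in CAKI-1, while B2M, outside the MHC region, lies near the HLA genes of 769-P in both lines.

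The members of the class I machinery outside the MHC region were not called in either line, unlike HLA-B and HLA-C in 769-P. B2M, the invariant light chain, stood at 5377 and 5765 with BCAA and 5018 and 5336 without in 769-P and at 6178 and 6718 with BCAA and 6619 and 6804 without in CAKI-1. Its log2 intervals were -0.01 to 0.22 and -0.19 to 0.07. NLRC5, the transactivator of class I genes, stood at 348 and 297 with BCAA and 276 and 238 without in 769-P and at 945 and 949 with BCAA and 807 and 819.7 without in CAKI-1. Its libraries with BCAA were above those without in both lines, but its log2 fold changes of 0.32 ± 0.14 (SE) and 0.22 ± 0.08 (SE) missed the threshold, with adjusted p of 0.087 and 0.084 in limma. TAP2, a chain of the peptide transporter, fell in 769-P on 32 and 41 reads with BCAA and 51 and 42 without, a log2 fold change of -0.94 ± 0.34 (SE, adjusted p = 0.045) that was lost in DESeq2 and when any 1 library was left out (between -1.20 and -0.69). TAPBP, the loading chaperone tapasin, had 16 to 22 reads per library in 769-P and 2 to 8 in CAKI-1 and was not called.

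Set against the effectors, the class I machinery in 769-P had a median log2 fold change of -0.37, beside 0.20 for the effectors. In that line 3 of its 6 tested genes were lower and none higher, where 18.2% of all genes were lower and 20.3% higher. In CAKI-1 the class I median was 0.52 over 5 tested genes, none of which was called by limma, edgeR or DESeq2 and 1 of which had an unadjusted limma p under 0.05, beside -0.14 for the effectors. Both class I medians were carried by genes of the MHC region. Without them, B2M and NLRC5 remain, with medians of 0.22 in 769-P and 0.08 in CAKI-1.

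Between lines, 14 of the 30 members tested in both differed in their BCAA effect, 7 further up and 7 further down in 769-P, against 21.1% of 19406 genes. The 7 further up were effectors (IFIT1, IFIT2, IFIT3, IFITM2, OAS1, OASL and IFI44). The 7 further down were IFNAR1, IFNGR1, JAK1, IRF1, DTX3L, HLA-B and HLA-C. Of the 30, 12 were called in neither line, 1 was higher in both, 1 was lower in both and 1 was opposite. Leaving out the MHC region and IRF9 left 12 of 26 differing. With a mean value of at least 10 required in both lines, 12 members differed, against 29.9% of 14371 genes. The differences of JAK1, IFIT1, IFI44, DTX3L, HLA-B and HLA-C were called whichever library was left out, and each of the other 8 was lost without at least 1 library. Without the intensity trend, only the differences of IFI44 and HLA-C stayed called. A replicate block ended those of IFNAR1, IFIT3 and IFITM2.

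**Figure D5:**
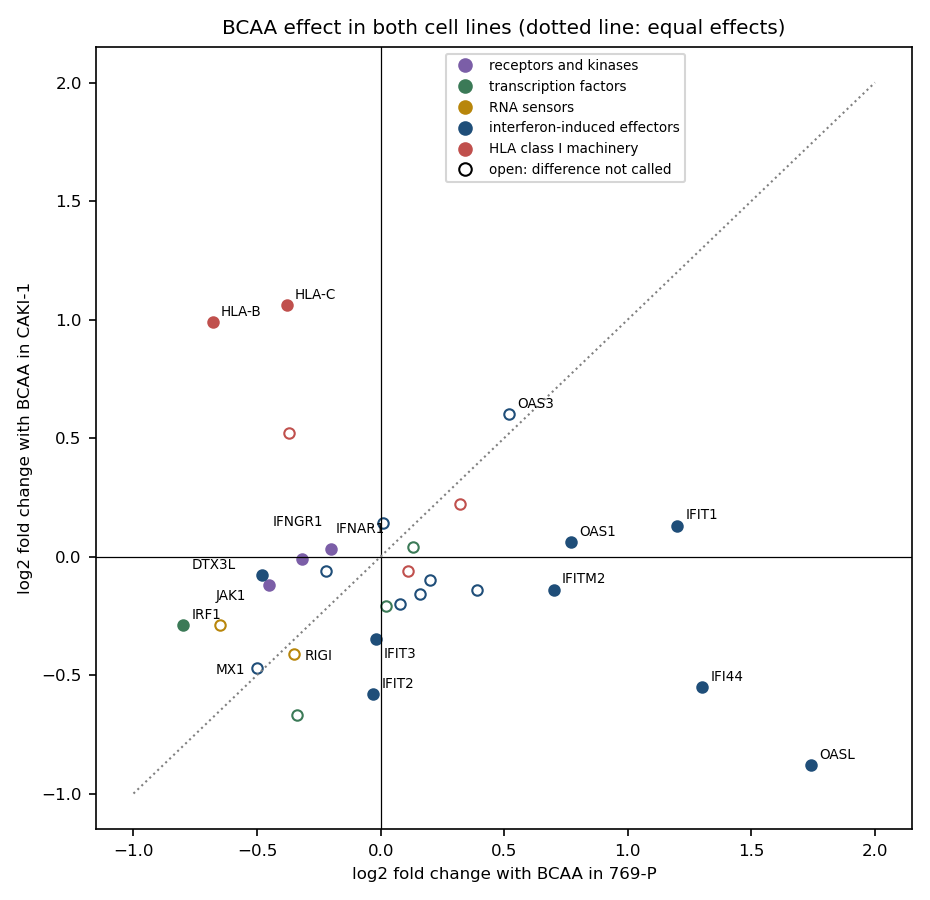
Log2 fold change with BCAA in CAKI-1 against that in 769-P for the 30 members tested in both lines, with filled points where the difference was called and a dotted line at equal effects. IFI44 and OASL lie at lower right, HLA-B and HLA-C at upper left, and OAS3 and RIGI close to the dotted line.

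A wider set of 123 interferon pathway genes was read beside the members. It was listed by role, with earlier results of these data known. In 769-P, 17 of 103 tested rose and 41 fell, and in CAKI-1, 12 of 102 rose and 19 fell, with medians of -0.14 and -0.07. The called shares were 56.3% and 30.4%, beside 38.4% and 19.9% of all genes. Dropping genes that averaged below 10 raised the shares over all genes to 55.6% in 769-P and 28.6% in CAKI-1. The wider set was not recounted with that filter, so an excess over genes of similar level was not shown. Counts of the single lists below stand against 20.3% of all genes higher and 18.2% lower in 769-P, and 10.8% higher and 9.05% lower in CAKI-1. Of 10 ligand genes 2 were tested in each line, IFNE and the cytokine gene IL6. IL6 fell in both, from 55.9 and 103 to 5.31 and 4.28 in 769-P (log2 fold change -3.74 ± 0.47 (SE)) and from 7844 and 7607 to 4591 and 6152 in CAKI-1 (-0.54 ± 0.11 (SE)). IFNE was called in neither line.

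Among 16 receptor, kinase and feedback genes tested in 769-P, 3 rose and 5 fell. The partner chain of IFNAR1, IFNAR2, was among the genes that fell there, with a log2 fold change of -0.75 ± 0.08 (SE). In CAKI-1, 3 of 16 rose and 3 fell, and IFNGR2, the partner of IFNGR1, was among those that fell, with a log2 fold change of -0.54 ± 0.14 (SE), as it did in 769-P with -0.47 ± 0.11 (SE). IRF5, a transcription factor of the Toll-like receptor pathway, fell in both lines, at -0.77 ± 0.09 (SE) in 769-P and -1.04 ± 0.16 (SE) in CAKI-1. STAT3, which carries IL6 signals, rose in both lines, with log2 fold changes of 0.17 ± 0.05 (SE) in 769-P and 0.18 ± 0.06 (SE) in CAKI-1.

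Of the nucleic acid sensing genes, 3 of 16 rose and 8 fell in 769-P, and 4 of 17 rose and 2 fell in CAKI-1, beside the same shares of all genes. CGAS, the DNA sensor, rose in both lines, at 1521 and 1458 with BCAA against 1052 and 1136 without in 769-P and at 1165 and 1109 with BCAA and 815 and 816 without in CAKI-1. Its partner STING1 rose in 769-P (log2 fold change 0.54 ± 0.15 (SE)). The largest falls in 769-P were those of TRIM25, a ubiquitin ligase of the RIG-I pathway, with a log2 fold change of -1.11 ± 0.05 (SE), and of the endosomal RNA sensor TLR3, with -1.06 ± 0.10 (SE). DHX58, which encodes the RIG-I relative LGP2, fell in both lines, with -0.72 ± 0.12 (SE) in 769-P and -0.90 ± 0.17 (SE) in CAKI-1. EIF2AK2, which encodes the RNA-activated kinase PKR, rose in CAKI-1 with 0.32 ± 0.06 (SE) and was not called in 769-P.

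The wider effectors in 769-P had 6 of 36 higher and 14 lower, where the member effectors had 5 higher and 1 lower. BST2, which tethers virions, rose from 46 and 40.4 to 94 and 127, and ISG20, an exonuclease, fell from 107 and 121 to 37.9 and 29.1. PARP12 fell with a log2 fold change of -1.14 ± 0.06 (SE), and with -0.36 ± 0.08 (SE) in CAKI-1, and TRIM5, a capsid-binding restriction factor, rose with 0.98 ± 0.07 (SE). In CAKI-1 limma called 9 of 36 wider effectors, all of them lower, among them IFI44L, the neighbour of IFI44, from 626 and 573 to 343 and 279. The type II response genes had 1 of 17 higher and 8 lower in 769-P, where CD274, which encodes PD-L1, fell from 488 and 545 to 212 and 144 and WARS1, a tryptophanyl-tRNA synthetase induced by interferon gamma, from 20687 and 21890.1 to 5389 and 5023. WARS1 also fell in CAKI-1, with a log2 fold change of -0.38 ± 0.06 (SE), one of 2 lower and 1 higher among 15 genes tested there.

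Of the wider antigen processing genes, 4 of 16 rose in each line, and 5 fell in 769-P and 2 in CAKI-1. The same 4 rose in both lines, PSME2 of the proteasome activator, the loading chaperones CALR and PDIA3, and RFX5, a factor of HLA promoters. CALR stood at 54142 and 56638 with BCAA and 20861 and 21855 without in 769-P, a log2 fold change of 1.37 ± 0.04 (SE). ERAP1, which trims peptides for class I, fell in both lines, from 4880.2 and 5251 to 4178 and 3871 in 769-P and from 7169 and 7040.3 to 4871 and 5235 in CAKI-1.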

How the data were processed

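RNA-seq of 769-P and CAKI-1 was analysed from 8 libraries, grouped by the cell line and treatment in their labels. Each line had 1 table deposited by the authors, whose values are a signal, namely reads per gene divided by a median-of-ratios size factor of the library (0.777 to 1.32). The submitters' processing notes name Trim Galore, TopHat2 2.1.0, SAMtools 1.3.1, HTSeq 0.6.0, DESeq, DESeq2 and hg38, and the annotation is not given in the sources used here. All values (100%) were whole multiples of 1 read within a tolerance of 0.001, so reads were recovered. Replicates differed by more than sampling noise (chi-square per degree of freedom of 3.26 to 11.91), and floors cover counting error only.

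Identifiers were matched to symbols through GENCODE 29 (25032 of 25431 in 769-P and 23881 of 24190 in CAKI-1). Within each line, genes whose values averaged 1 or more were fitted with limma 3.58.1 on log2(value + 1) (intensity trend, R 4.3.3), with Benjamini-Hochberg adjustment at 0.05 over all genes and no minimum fold. On this scale the change of low genes is understated. The difference between lines was the interaction of 1 fit over the 8 libraries. Alternatives changed the pseudocount, filter, scaling, threshold, block, spread, trend, test and libraries. On the recovered reads, edgeR 4.0.16 called 8794 genes in 769-P and 4397 in CAKI-1, and DESeq2 1.42.0 called 7537 and 3790. The tests were checked on simulated data first. The planned test suited the unit. Levels per kilobase used merged exons.

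All 38 members are named, and from each wider list the 2 called genes with the largest rise and fall per line with a mean of at least 20 and no overlap could be named. The members and lists were chosen with earlier results of these data known. The genes of the MHC region, the 3 alternatives without that region or IRF9, and BAG6, BRD2 and WDR46 were chosen after their values were seen. Some items are not reported here.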

Additional observations from a re-analysis of the deposited data

Results flagged for a closer look

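The BCAA effect differed between the lines for 14 members in the limma interaction test, and each value here is the log2 fold change in 769-P minus that in CAKI-1. It was positive for IFI44 (1.86), IFIT1 (1.07), IFITM2 (0.85), OAS1 (0.71), IFIT2 (0.56), IFIT3 (0.33) and OASL (2.62), the last on at most 18 reads per library in 769-P. It was negative for JAK1 (-0.33), IFNGR1 (-0.31), IFNAR1 (-0.23), IRF1 (-0.51), DTX3L (-0.40), HLA-B (-1.67) and HLA-C (-1.44), the HLA values on at most 21 reads per library in CAKI-1. The differences of JAK1, IFIT1, IFI44, DTX3L, HLA-B and HLA-C were called whichever of the 8 libraries was left out, but that of HLA-C was lost in edgeR and DESeq2. Without the intensity trend, only the differences of IFI44 and HLA-C stayed called. The IFIT3 difference was lost in DESeq2 and that of IFNAR1 in edgeR, and both, with that of IFITM2, were lost with a replicate block. The IFITM2 difference was also lost in 7 of 8 fits that left out 1 library.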

How the results depend on the processing

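Members called numbered 5 higher and 10 lower in 769-P, 1 higher and 6 lower in CAKI-1, and 14 differing between lines. Without the intensity trend these were 1, 6, 0, 0 and 2, and limma then called 0 of all genes in CAKI-1, with 6 members at an unadjusted p under 0.05. With the spread from 8 libraries, 3 were higher in CAKI-1. At an adjusted p under 0.01, 2 were lower in CAKI-1 and 6 differed. With at least 1.5-fold, 4 were lower in 769-P, 0 in CAKI-1, and 7 differed. With 1 library left out, 1 to 3 were higher and 6 to 7 lower in 769-P, 0 to 0 higher and 0 to 0 lower in CAKI-1, and 6 to 12 differed, the lone library being assumed to vary like the others. The 15 and 7 called members kept their direction under each of these.

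The effector median in 769-P (0.20) was 0.39 in DESeq2, 0.42 in edgeR, 0.14 with a mean of at least 10 or 20, 0.15 with upper quartile scaling, and 0.12 to 0.42 with 1 library left out. In CAKI-1 (-0.14) it was -0.20 with upper quartile scaling and -0.22 to -0.11 with 1 library left out. The class I median in 769-P (-0.37) was -0.13 without the HLA genes, 0.22 without the MHC region, and -0.48 to -0.27 with 1 library left out. In CAKI-1 (0.52) it was 0.41 in DESeq2, 0.43 in edgeR, 0.60 and 0.26 with pseudocounts of 0.5 and 5, 0.22 with a mean of at least 10 or without the HLA genes, 0.08 with a mean of at least 20 or without the MHC region, and 0.21 to 0.74 with 1 library left out. Apart from the MHC alternative, whose construction leaves B2M and NLRC5, the cause was not tested.

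Directions of uncalled effects turned in some alternatives. With upper quartile scaling, STAT2 (-0.03) and PARP9 (-0.04) turned in 769-P and IFNAR1 (-0.02) and IRF3 (-0.01) in CAKI-1, and edgeR turned IFIT3 in 769-P (0.01). With 1 library left out, the log2 fold change in 769-P ran from -0.08 to 0.12 for STAT2, -0.17 to 0.12 for IFIT2, -0.09 to 0.06 for IFIT3, -0.10 to 2.17 for IFITM1, -0.81 to 1.12 for OAS2 and -0.04 to 0.05 for PARP9. In CAKI-1 it ran from -0.06 to 0.04 for IFNGR1, -1.36 to 0.02 for IRF9, -0.01 to 0.12 for OAS1, -0.33 to 0.05 for IFI6, -0.17 to 0.05 for SAMD9 and -0.27 to 1.32 for TAPBP. The difference between lines ran from -0.02 to 0.19 for IRF3, -0.36 to 1.02 for IRF9, -0.06 to 0.17 for RIGI, -0.10 to 0.03 for MX1, -0.65 to 1.28 for OAS2, -0.19 to 0.04 for OAS3 and -0.01 to 0.22 for NLRC5.

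Equal replicate numbers showed no clear pairing of the libraries. Deviations of the libraries numbered 1 with and without BCAA from their condition means correlated at -0.088 over 11855 genes in 769-P. In CAKI-1 the correlation was 0.061 over 11720 genes. With a replicate block, 5 members were higher and 11 lower in 769-P, 1 higher and 6 lower in CAKI-1, and 11 differed between lines, without IFNAR1, IFIT3 and IFITM2. The block also ended the CAKI-1 call of STAT2 and added IRF1 there and SAMD9 in 769-P, both lower. The 2 libraries per condition limit all of these, as do the few reads of IRF9, IFITM1, OAS2 and OASL in 769-P and of the HLA genes in CAKI-1.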
